A study of Mus musculus with 4 samples.

Results

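Peroxisomes are small organelles that shorten very long-chain and branched fatty acids, start the synthesis of ether lipids and break down hydrogen peroxide. The genes described here are 38 mouse genes of peroxisome assembly and peroxisomal fatty acid oxidation, measured in Langerhans cells, the antigen-presenting cells of epidermis. They were taken by gene symbol from a table of 55487 genes, and all 38 were found once and passed the filter on low counts. The list was drawn up with the values of these libraries known, so its fold changes describe the libraries and are not independent evidence for a direction. Langerhans cells were isolated from ears of wild-type mice. Ears had been treated either with Vaseline, the vehicle that served as negative control, or with imiquimod, an agonist of the receptor Tlr7 that is used to provoke psoriasis-like skin inflammation. Each group had 2 libraries, numbered 1 and 2, made from total RNA. The labels state neither duration, dose or age, nor how many mice a library came from, so p-values measure only the spread between these libraries. They also give the 2 Vaseline libraries one letter code and each imiquimod library another. The labels do not explain these codes. Should they stand for batches, treatment and batch cannot be told apart.

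Peroxisomes hold no DNA, so every one of their proteins is made in the cytosol and imported by the peroxins, the products of the Pex genes. Pex5 and Pex7 recognise the cargo, a docking complex at the membrane passes it on, and a ring of ubiquitin ligases and ATPases returns the receptor for another round. Inside, an oxidase, a multifunctional enzyme and a thiolase shorten fatty acids in turn, and the oxidase step makes the hydrogen peroxide that catalase removes.

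Library totals ran from 14902782 to 76028955 counts, a 5.10-fold range, with both imiquimod libraries below both Vaseline libraries. Reads also lay at a low level on olfactory and vomeronasal receptor genes, which skin cells are not known to use, and their median level gave a background for each library. Per exonic kilobase it stood at 0.395 CPM (counts scaled to a normalised library total) in Vaseline 1, at 0.159 in Vaseline 2, at 0.507 in imiquimod 1 and at 0.776 in imiquimod 2. The 12 Langerhans cell markers on the list used, Cd207 among them, were detected in all 4 libraries. Their summed level was 23169 and 61168 CPM with Vaseline and 8471 and 7091 CPM with imiquimod. In the fit of all genes 12 of 12 had negative fold changes, as did 83.3% of genes above background. None of the 12 passed in edgeR. There 5 had an unadjusted p under 0.05, where 5.1% of all genes and 13.4% of genes above background were lower by that rule. DESeq2 called 10 lower over all genes and 6 above background, where it called 6.95% and 1.1% of genes lower. Keratinocyte and sebaceous markers summed to 16738 and 19783 CPM with Vaseline and to 15713 and 4283 CPM with imiquimod. Relative to Cd207 the order was the opposite for the keratin gene Krt14. It had 2.466 and 1.090 counts per Cd207 count with Vaseline and 5.413 and 3.003 with imiquimod, without overlap. This ratio does not depend on the scaling, but it does not tell higher Krt14 from lower Cd207. In bulk RNA, fewer cells of a type and less RNA per cell cannot be told apart, and the part of these differences in the results that follow was not tested.

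A pair of genes stood apart from the rest of the list. Hsd17b4 and Scp2, which encode consecutive enzymes of peroxisomal beta-oxidation, were the members of highest level per exonic kilobase with Vaseline. With imiquimod they were 8.91-fold and 8.20-fold lower in the fit of all genes. In a fit of genes at 5 times background or more, as a mean over libraries, they were 5.05-fold and 4.74-fold lower. Whether they passed depended on the test. The other 30 members in that second fit had log2 fold changes from -0.99 to 0.82. In imiquimod 2 the pair stood at 15.2 and 11.7 times background, while most of these other members were under 5 times. In the fit of all 39439 genes tested, 31 of the 38 had negative and 7 positive log2 fold changes (imiquimod over Vaseline), with a median of -0.73. Over all genes tested the median was 0.41 and 39.4% of values were negative. With the edgeR quasi-likelihood test, 0 of the 38 passed an adjusted p of 0.05 in either direction, against 0.0634% of all genes called higher and 0.137% called lower. At an unadjusted p under 0.05 there were 5 members, Hsd17b4, Scp2, Cat, Idh1 and Acox3, all lower, where 5.1% of all genes were lower by that rule. All 5 are above background, and in the same fit 13.4% of genes above background were lower by that rule.

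The direction of 10 of the 32 members above background turned with the genes used for scaling. Levels are CPM after TMM scaling, which assumes that most genes do not change. Genes up to 2 times background had a median log2 fold change of 1.12 in the fit of all genes, and genes at 5 times or more had a median of -0.69. Of the latter genes 83.3% were negative, as were 30 of the 32 members among them. When the 14398 tested genes above background were scaled and fitted alone, their median was 0.03. In that fit 32 of the 38 members were kept, 20 were negative and 12 positive, and their median was -0.14. Each of the 38 had its highest ratio to background in Vaseline 2, so a member could be kept through Vaseline alone. The directions of the kept members are not independent of that choice. On library totals alone the median of the 38 was 0.04, where that of all genes was 1.30. Of the 6 members under the bound, 5 had positive fold changes in the fit of all genes. These 6 were Abcd2, Nudt7, Pex11a, Pxmp2, Hacl1 and Pex7, at 1.56, 1.89, 4.01, 4.16, 4.32 and 4.65 times background as a mean over libraries.

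**Figure D1:**
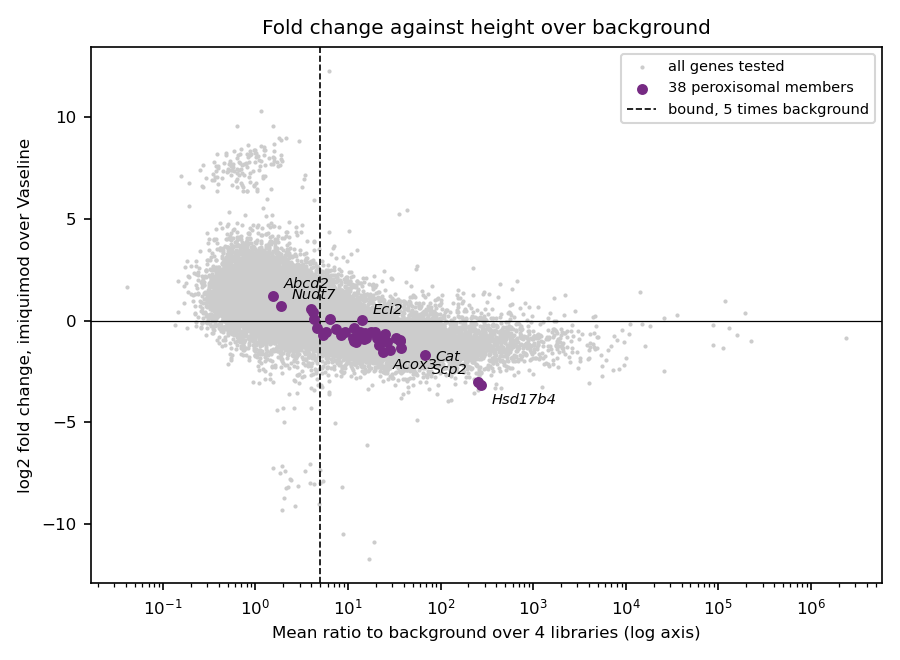
Log2 fold change of imiquimod over Vaseline in the fit of all genes, against the mean ratio of each gene's level to the background over the 4 libraries (log axis), with the 38 peroxisomal genes in purple, all other genes in grey and the bound of 5 times background dashed. Low genes lie mostly above 0 and high genes mostly below it, and Hsd17b4 and Scp2, at 276 and 253 times background, lie at -3.16 and -3.04.

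Groups without overlap were counted in the same way. In the scaling of all genes, both imiquimod libraries were below both Vaseline libraries for 25 members, where 20.9% of all genes and 50.7% of genes above background showed this order. They were above both for 4 members, where 30.5% of all genes and 5.42% of genes above background did. In the scaling of genes above background, the order was lower for 12 of the 32 members, against 23% of such genes, and higher for 4, against 21.1%.

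Hsd17b4 encodes the D-bifunctional protein, which hydrates and dehydrogenates the products of the acyl-CoA oxidases and handles very long and branched chains as well as bile acid precursors. The gene (ENSMUSG00000024507) lies on chromosome 18. Its level was 257 CPM in Vaseline 1 and 474 CPM in Vaseline 2, against 42.1 and 40.1 CPM with imiquimod. Both imiquimod libraries were far below the lower Vaseline library. The means were 366 ± 153 and 41.1 ± 1.42 CPM (SD, n = 2), and the log2 fold change was -3.16 (SE 0.90), or 8.91-fold lower. In the edgeR quasi-likelihood test of all genes the adjusted p was 0.0963, which misses the threshold. Among genes above background the log2 fold change was -2.34 (SE 0.34, edgeR adjusted p = 0.334), the 15th smallest p and the 27th lowest fold change of 14398 genes. That edgeR fit called no gene in either direction, while 809 genes were lower and 647 higher at an unadjusted p under 0.05. DESeq2 gave Hsd17b4 adjusted p-values of 4.1e-05 over all genes and 1.77e-06 above background, and limma-voom gave 0.00567.

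Scp2 encodes sterol carrier protein 2 and, from an upstream start, SCPx, the thiolase that cleaves branched chains and bile acid precursors after the D-bifunctional protein. Its level was 190 and 462 CPM with Vaseline and 48.3 and 31.7 CPM with imiquimod. Counts were per gene and do not tell SCPx from sterol carrier protein 2. The groups did not overlap, and the higher imiquimod library was well below the lower Vaseline library. Means were 326 ± 192 and 40.0 ± 11.7 CPM (SD, n = 2), with a log2 fold change of -3.04 (SE 0.88, edgeR adjusted p = 0.103). Among genes above background it was -2.24 (SE 0.34, edgeR adjusted p = 0.334). DESeq2 adjusted p-values were 0.000423 over all genes and 2.09e-05 above background, and limma-voom gave 0.011.

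The call for this pair thus differed between tools. In edgeR it turned on the scaling for Hsd17b4 and, among genes above background, on a single library for both genes. Without imiquimod 2, the edgeR fit of genes above background gave Hsd17b4 a log2 fold change of -2.68 and Scp2 one of -2.28. Both genes passed there, but the imiquimod arm then had 1 library and was assumed to vary like Vaseline. Over the main setting and all 18 others, the log2 fold change of Hsd17b4 lay between -3.65 and -2.06 and passed in 5, and that of Scp2 lay between -3.65 and -1.81 and passed in 4. DESeq2 called 3 members lower, these genes and Acox3, of the 23 to which it gave an adjusted p, where it called 6.95% of all such genes lower and 0.0624% higher. Above background it called the pair lower of 32 members, against 1.1% of genes lower and 0.701% higher. For limma-voom the same pair passed, against 0.345% of genes lower and 0.104% higher. On library totals edgeR called Hsd17b4 alone (adjusted p = 0.0493), against 0.0127% of genes lower and 0.0203% higher.

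Shares within a library do not depend on the scaling. Hsd17b4 and Scp2 together held 37.3% and 45.3% of the counts of the 38 genes with Vaseline, and 12.7% and 15.4% with imiquimod. Hsd17b4 alone held 21.4% and 22.9% with Vaseline and 5.90% and 8.62% with imiquimod. For Scp2 the shares were 15.8% and 22.4% with Vaseline and 6.77% and 6.82% with imiquimod. The groups were separate in each case. However, the pair was singled out by its low fold changes in these same libraries. A lower share of the list follows from that choice and is not separate support. With 2 libraries against 2, an exact permutation test (two-sided) cannot give a p below 0.333, and none was used for these shares.

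**Figure D2:**
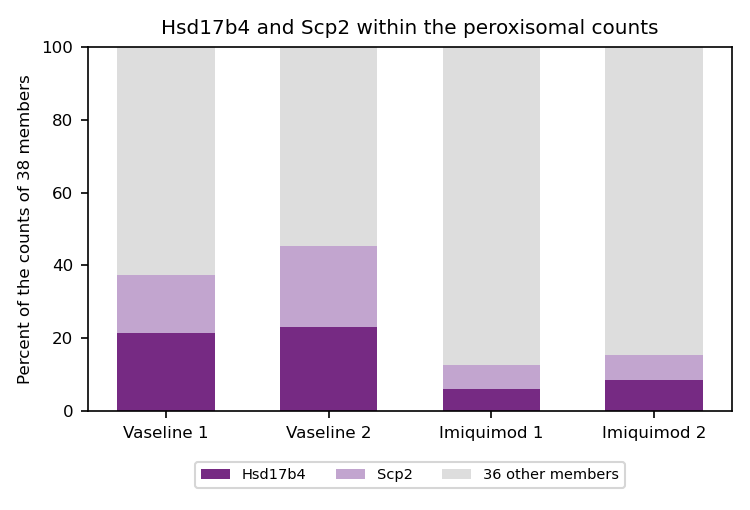
Percent of the summed counts of the 38 peroxisomal genes held by Hsd17b4, Scp2 and the 36 other genes in each library, as stacked bars. The pair takes 37.3% and 45.3% with Vaseline, and 12.7% and 15.4% with imiquimod.

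Ratios to single members with milder fold changes showed the same order, which also follows from how the pair was singled out. They are examples from 17 relations computed within libraries. There were 8.55 and 8.18 counts of Hsd17b4 for each count of Pex5 with Vaseline, and 1.46 and 1.97 with imiquimod. For each count of Ehhadh, which encodes the other bifunctional enzyme of the pathway, Hsd17b4 had 49.0 and 77.7 counts with Vaseline and 8.57 and 16 with imiquimod. For each count of Acaa1a, the straight-chain thiolase, Scp2 had 9.36 and 14.2 counts with Vaseline and 2.56 and 1.89 with imiquimod. The Scp2 counts are per gene, not those of the thiolase SCPx alone. Hsd17b4 counts per Scp2 count were 1.35 and 1.03 with Vaseline and 0.872 and 1.26 with imiquimod, so the groups overlapped and the pair kept a similar ratio in all 4 libraries.

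Of the library total, the 36 other genes together took nearly the same share in every library. Taking the Vaseline mean of that share as 100%, they stood in Vaseline 1, Vaseline 2, imiquimod 1 and imiquimod 2 at 103%, 96.9%, 93.8% and 93.3%. Hsd17b4 stood at 92.9% and 107% of its Vaseline mean with Vaseline and at 16.7% and 25.1% with imiquimod. Scp2 stood at 79.3% and 121%, and at 22.1% and 22.9% with imiquimod. The 12 Langerhans cell markers together moved in the same direction, at 75.4% and 125% with Vaseline and 30.3% and 40.0% with imiquimod. Background was not subtracted from these shares. Per exonic kilobase it was 0.395 and 0.159 CPM with Vaseline and higher, at 0.507 and 0.776 CPM, with imiquimod. Its part in the nearly equal shares of the 36 other genes was not tested.

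**Figure D3:**
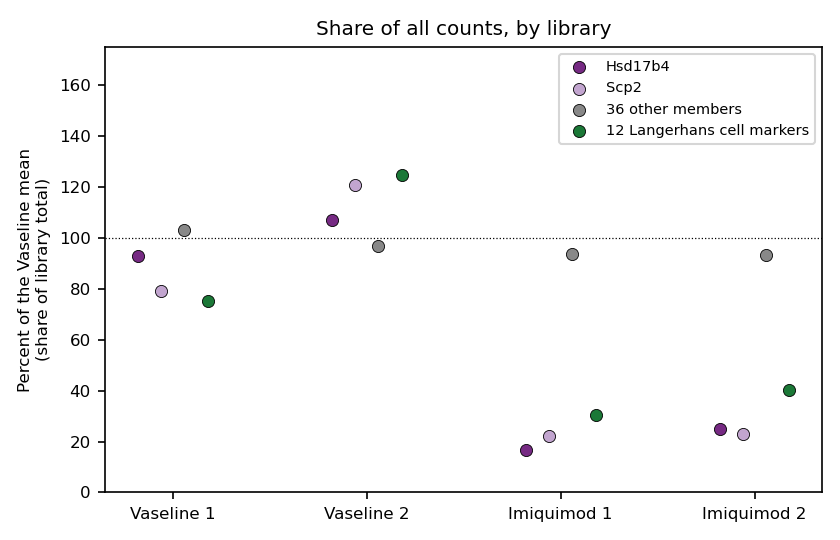
Counts per library total, as percent of the mean of the 2 Vaseline libraries, for Hsd17b4, Scp2, the 36 other peroxisomal genes summed and the 12 Langerhans cell markers summed; each point is 1 library and the dotted line marks 100%. The 36 other genes stay between 93.3% and 103% in all libraries, while Hsd17b4, Scp2 and the markers are at 16.7% to 40.0% in the imiquimod libraries. Background, which was higher per exonic kilobase with imiquimod, is not subtracted.

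Set against the markers of the isolated cell type, the difference was smaller. Hsd17b4 had 1.11 and 0.776 counts per 100 marker counts with Vaseline and 0.497 and 0.565 with imiquimod. Scp2 had 0.822 and 0.756 with Vaseline and 0.570 and 0.447 with imiquimod, and neither gene's groups overlapped. Per 100 counts of Cd207 alone, the Langerhans cell lectin langerin, Hsd17b4 had 11.4 and 6.91 with Vaseline and 3.51 and 6.99 with imiquimod, and the groups overlapped. Scp2 had 8.46 and 6.73 per 100 counts of Cd207 with Vaseline and 4.03 and 5.53 with imiquimod, without overlap. The 36 other genes went the opposite way, with 3.25 and 1.85 counts per 100 marker counts with Vaseline and 7.35 and 5.54 with imiquimod. Their counts include background, which was higher per exonic kilobase with imiquimod. How far the marker level accounts for the lower Hsd17b4 and Scp2 was not tested.

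Compared per exonic kilobase, the same pair led the list with Vaseline. Mean levels there were 108 CPM per kilobase for Hsd17b4 and 93.8 for Scp2, and the ranges of the pair over libraries overlapped. Cat followed with 23.9, Far1 with 13.5, Ech1 with 12.8, Phyh with 12.5, Pex5 with 11.2 and Idh1 with 10.4. With imiquimod the top of the order was compressed, from 12.1 for Hsd17b4 and 11.5 for Scp2 to 7.63 for Cat, 6.64 for Phyh, 6.63 for Ech1 and 6.23 for Pex5. Abcd2 was lowest in both groups, at 0.375 and 0.854 CPM per kilobase.

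**Figure D4:**
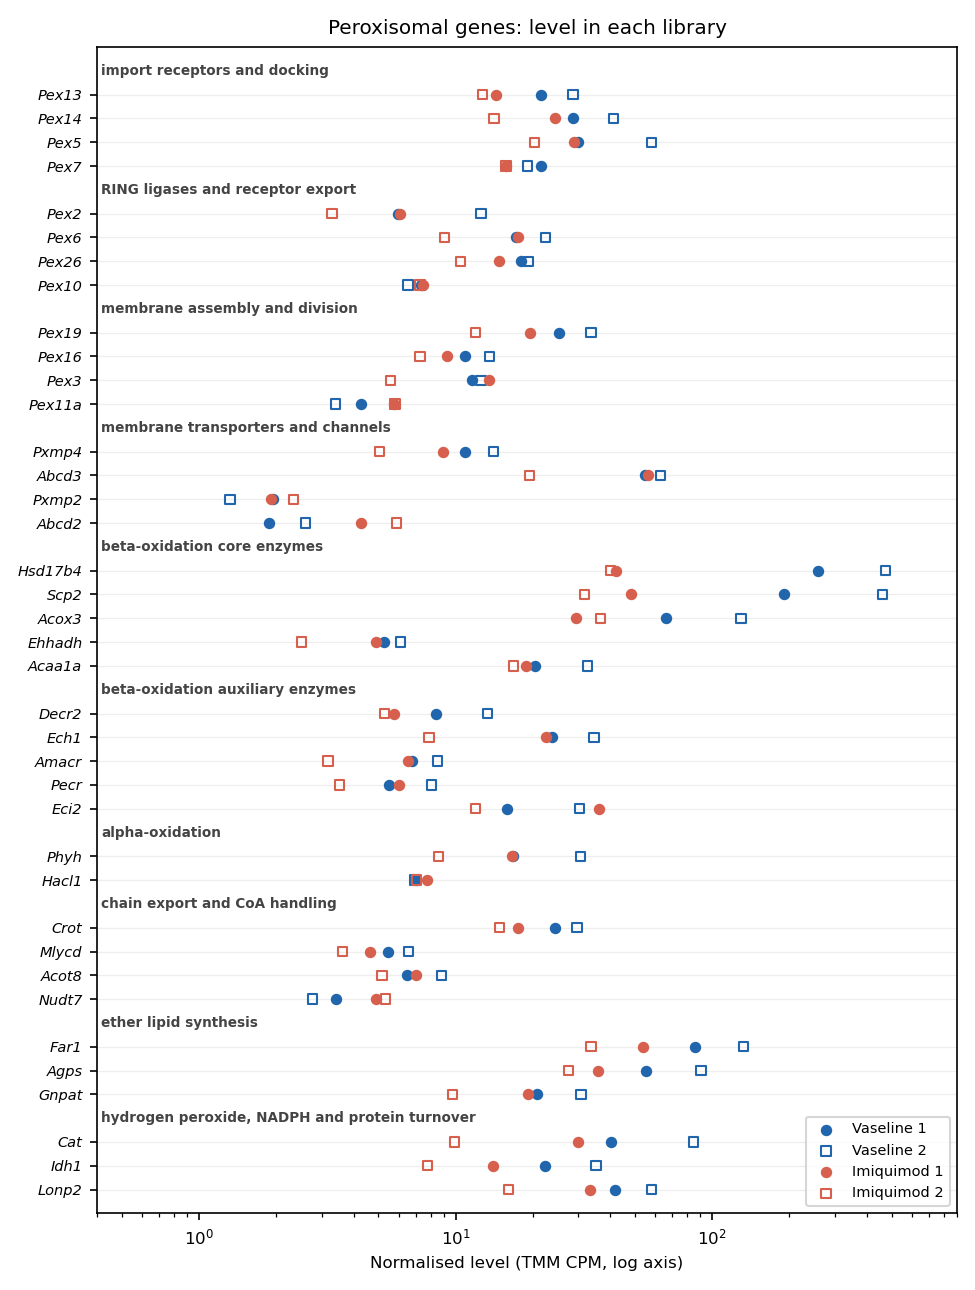
TMM-normalised CPM of each of the 38 genes in each library (log axis), grouped by role; circles are replicate 1, squares replicate 2, blue Vaseline and red imiquimod. Hsd17b4 and Scp2 show wide gaps between groups, from 257 to 42.1 CPM and from 190 to 48.3 CPM at their nearest points, whereas Pex5, at 30.1 and 28.8 CPM at its nearest points, shows nearly none.

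The remaining core enzymes of beta-oxidation gave smaller values. Acox3, an acyl-CoA oxidase of branched chains, measured 66.3 and 130 CPM with Vaseline and 29.3 and 36.7 CPM with imiquimod. Its groups did not overlap, with a log2 fold change of -1.56 (SE 0.68, edgeR adjusted p = 0.323) over all genes and -0.69 (SE 0.40, adjusted p = 0.558) above background. DESeq2 gave an adjusted p of 0.0468 over all genes, and Acox3 passed in this 1 of 15 settings. Ehhadh, the L-bifunctional enzyme, and Acaa1a had log2 fold changes of -0.69 and -0.57 over all genes and of 0.03 and 0.22 above background. Acaa1a has a near-identical copy, Acaa1b, and how its reads were shared between them is uncertain.

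Catalase, which breaks down hydrogen peroxide in peroxisomes, was the next member by p. Cat measured 40.4 and 84.4 CPM with Vaseline and 30.0 and 9.90 CPM with imiquimod, so the groups were separate but imiquimod 1 lay near Vaseline 1. Its log2 fold change was -1.68 (SE 0.65, edgeR adjusted p = 0.28), and -0.99 (SE 0.39, adjusted p = 0.482) above background. Idh1, an NADPH source in cytosol and peroxisome, measured 22.3 and 35.2 CPM with Vaseline and 14.0 and 7.78 CPM with imiquimod. Its log2 fold change was -1.43 (SE 0.61, edgeR adjusted p = 0.315), and -0.70 above background. Lonp2, the peroxisomal Lon protease, measured 41.9 and 58.0 CPM and then 33.4 and 16.0 CPM with imiquimod. Its value was -1.03 over all genes and -0.35 above background, and neither Idh1 nor Lonp2 passed in any setting tried.

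The 250 bases before the RefSeq start of Scp2, Cat and Acox3 are shown (build GRCm38.p6). These 3 genes had the lowest log2 fold changes of the list in the fit of all genes after Hsd17b4, for which no window is shown. The windows were chosen with the values known. They lie at chr4:108118548-108118797 (minus strand) for Scp2, chr2:103485154-103485403 (minus strand) for Cat and chr5:35582784-35583033 (plus strand) for Acox3. The RefSeq start of Scp2 lies inside the longer gene model of the annotation used for exons. Capitals mark matches on either strand to 3 motifs. The first is AGGTCA, the hexamer bound by nuclear receptors such as the fatty acid sensors of the PPAR family. The others are the CCAAT box, spelled as its name, and the GC box, which reads GGGCGG.
Scp2: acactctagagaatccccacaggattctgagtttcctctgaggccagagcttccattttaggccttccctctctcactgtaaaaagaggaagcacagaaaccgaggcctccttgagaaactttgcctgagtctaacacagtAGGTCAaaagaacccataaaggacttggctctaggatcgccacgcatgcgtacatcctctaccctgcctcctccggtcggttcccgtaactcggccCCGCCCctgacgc
Cat: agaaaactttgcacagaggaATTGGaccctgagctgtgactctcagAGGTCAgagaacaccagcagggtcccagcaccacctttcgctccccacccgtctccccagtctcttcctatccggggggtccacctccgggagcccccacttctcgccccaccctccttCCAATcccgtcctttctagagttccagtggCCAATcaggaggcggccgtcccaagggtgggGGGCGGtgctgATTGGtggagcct
Acox3: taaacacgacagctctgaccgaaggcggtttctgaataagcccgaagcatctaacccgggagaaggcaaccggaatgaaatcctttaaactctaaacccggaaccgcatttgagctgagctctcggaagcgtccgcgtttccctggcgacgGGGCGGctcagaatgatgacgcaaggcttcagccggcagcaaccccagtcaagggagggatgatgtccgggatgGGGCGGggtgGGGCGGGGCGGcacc
The window of Scp2 holds a nuclear receptor hexamer and a GC box, that of Cat holds all 3 motifs, and that of Acox3 holds GC boxes only.

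Over the list, 32 members matched the promoter table, with 39 promoters. AGGTCA lay in 2 of the 39 (5.13%), those of Cat and Scp2, where 14.0% of 32851 promoters of the same length held it. The direct repeat AGGTCANAGGTCA, a strict form of the PPAR response element, lay in none of the 39 and in 0.0335% of all promoters. The GC box GGGCGG lay in 28 (71.8%) against 32.7% of all, CCAAT in 17 (43.6%) against 33.8%, and the E-box CACGTG in 2, those of Gnpat and Lonp2, against 6.02%. Member promoters had a median of 60% G and C where all promoters had 52.4%. A match of letters is a description and marks no bound site.

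The 3 enzymes that start ether lipid synthesis all had lower imiquimod libraries in both scalings, an order shown by 50.7% of genes above background in the scaling of all genes and by 23% in their own. Far1, which makes the fatty alcohol, measured 86.0 and 132 CPM with Vaseline and 53.5 and 33.7 CPM with imiquimod. Agps, the alkyl-glycerone phosphate synthase, measured 55.3 and 90.5 CPM with Vaseline and 36 and 27.6 CPM with imiquimod. Their log2 fold changes were -1.33 and -1.20 over all genes (edgeR adjusted p = 0.372 and 0.384), and -0.60 and -0.43 above background. Gnpat, the acyltransferase of the first step, had -0.87 and -0.16, and above background its nearest libraries were 19.4 and 19.1 CPM, nearly equal. None of these 3 passed in any setting tried.

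The import machinery showed no member past the threshold by any test. Pex5 and Pex7, the receptors for the main and the rarer peroxisomal targeting signals, had log2 fold changes of -0.85 and -0.36 over all genes. Pex13 and Pex14, which form the docking site, had -0.90 and -0.87. In the scaling of genes above background, Pex5, Pex13 and Pex14 had -0.07, -0.12 and -0.16, so these 3 lay within 0.2 of no change. Pex14 shares 28.3% of its exonic bases with another gene model, and its value is uncertain.

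Pex2 and Pex10 encode RING ligases that mark the receptor for return to the cytosol. Pex2 measured 5.95 and 12.5 CPM with Vaseline and 6.06 and 3.29 CPM with imiquimod, and the groups overlapped. Its log2 fold change was -1.04 (edgeR adjusted p = 0.414), and -0.25 above background. Pex10 was at 7.32 and 6.52 CPM and, with imiquimod, at 7.46 and 7.25 CPM, with log2 fold changes of 0.09 over all genes and 0.82 above background (SE 0.46, edgeR adjusted p = 0.552). Relative to background the order was the opposite, at 5.62 and 12.4 times with Vaseline and 4.46 and 2.83 times with imiquimod. Its sign in the fit of all genes turned with RLE factors and with DESeq2, and was negative without Vaseline 2 and without imiquimod 1. Pex6, an ATPase that pulls the receptor out of the membrane, and Pex26, its anchor, had -0.60 and -0.57 over all genes and 0.09 and 0.14 above background.

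Pex3, Pex16 and Pex19 insert membrane proteins into the organelle. Their log2 fold changes were -0.39, -0.58 and -0.92 over all genes and 0.26, 0.17 and -0.21 above background, so the sign of Pex3 and Pex16 turned with the scaling. Pex11a, which takes part in the elongation and division of peroxisomes, measured 4.28 and 3.4 CPM with Vaseline and 5.74 and 5.80 CPM with imiquimod. Its log2 fold change was 0.59 (SE 0.64, edgeR adjusted p = 0.60), at 4.01 times background.

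Of the membrane transporters, Abcd2, which carries very long-chain acyl-CoA into the organelle, had the highest fold change of the list. It measured 1.87 and 2.59 CPM with Vaseline and 4.27 and 5.88 CPM with imiquimod, a log2 fold change of 1.21 (SE 0.68, edgeR adjusted p = 0.393). The groups did not overlap, but the gene stood at 0.795 and 2.74 times background with Vaseline and at 1.42 and 1.27 times with imiquimod, where the groups overlapped. Abcd3, the main acyl-CoA transporter of the peroxisomal membrane, measured 54.8 and 62.8 CPM with Vaseline and 56.0 and 19.4 CPM with imiquimod, and had -0.66 over all genes and -0.06 above background. Pxmp2, a channel protein, measured 1.94 and 1.32 CPM with Vaseline and 1.91 and 2.33 CPM with imiquimod, with a log2 fold change of 0.41 (edgeR adjusted p = 0.767). Pxmp4, a membrane protein, had -0.88 over all genes and -0.16 above background.

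The auxiliary enzymes prepare unsaturated and branched chains for beta-oxidation. Ech1, a dienoyl-CoA isomerase, measured 23.8 and 34.6 CPM with Vaseline and 22.4 and 7.86 CPM with imiquimod, with a log2 fold change of -0.98 (edgeR adjusted p = 0.42) and of -0.33 above background. Imiquimod 1 was close to Vaseline 1, and the difference lay mostly in imiquimod 2. Decr2, a dienoyl-CoA reductase, and Amacr, the racemase of branched chains, had -0.99 and -0.72 over all genes and -0.18 and -0.01 above background. Pecr, an enoyl-CoA reductase, had -0.56 and 0.19. Eci2, an enoyl-CoA isomerase, measured 15.8 and 30.3 CPM with Vaseline and 36.1 and 12 CPM with imiquimod, and its log2 fold change of 0.04 over all genes was -1.03 without imiquimod 1. Eci2 has a close copy, Eci3, so its reads are uncertain.

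Phyh and Hacl1 carry out alpha-oxidation, which removes a single carbon from phytanic acid. Their log2 fold changes were -0.94 and 0.08 over all genes, and Phyh had -0.20 above background. Hacl1 shares 33.3% of its exonic bases with other gene models and is uncertain. Crot, the carnitine octanoyltransferase that exports shortened chains, had -0.75 and 0.01, Acot8, a thioesterase, -0.35 and 0.41, and Mlycd, the malonyl-CoA decarboxylase, -0.56 and 0.20. Nudt7, which degrades coenzyme A, measured 3.41 and 2.77 CPM with Vaseline and 4.91 and 5.33 CPM with imiquimod. Its log2 fold change of 0.74 (SE 0.66, edgeR adjusted p = 0.534) stood at 1.89 times background.

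**Figure D5:**
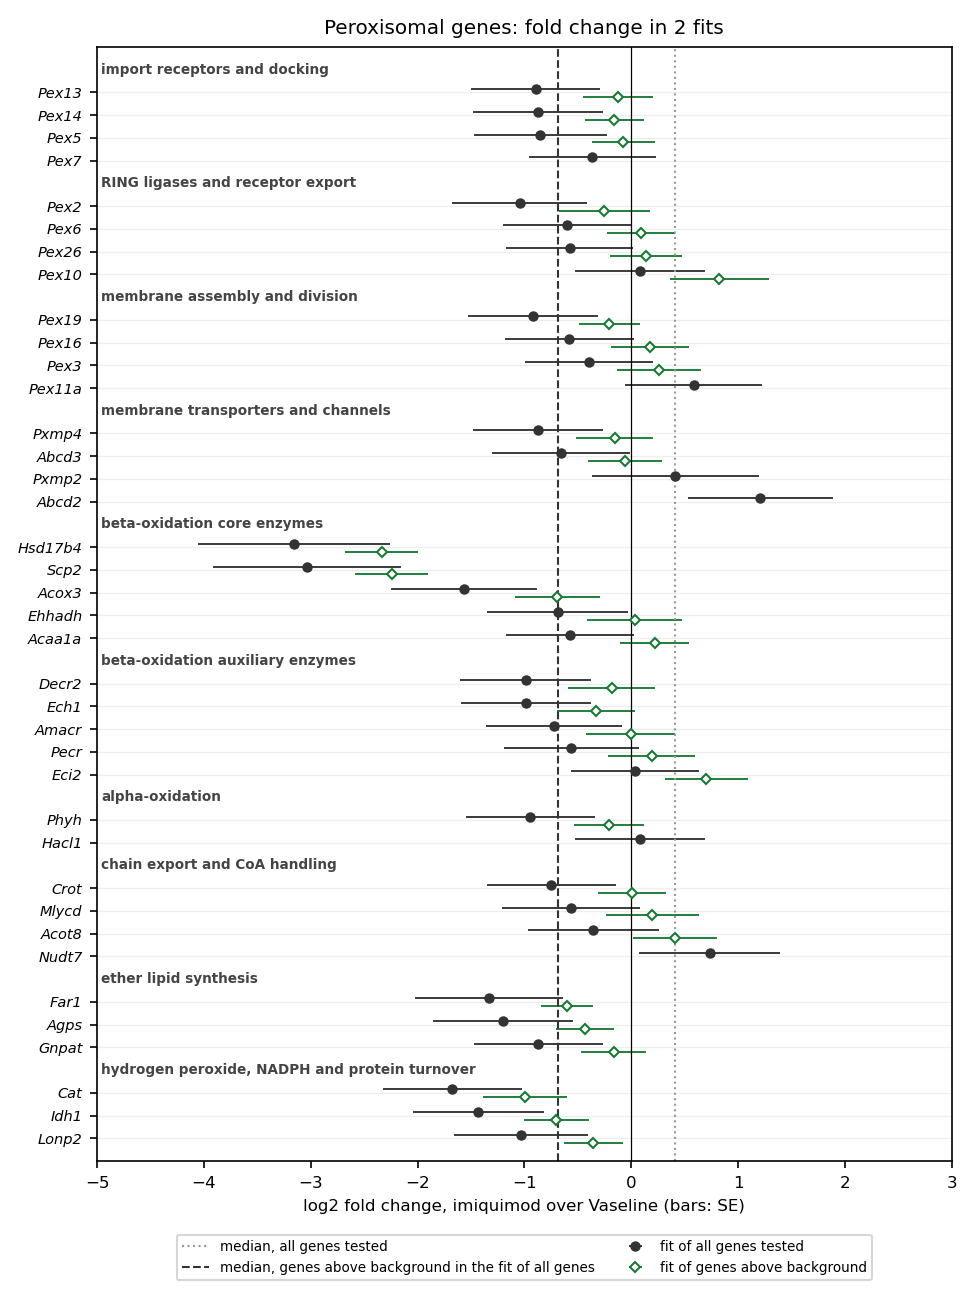
Log2 fold change of imiquimod over Vaseline for each of the 38 genes, with SE bars, in the fit of all genes (black) and in the fit of genes above background (green, 32 genes); vertical lines give the median of all genes (0.41) and of genes above background in the fit of all genes (-0.69). The green values of Hsd17b4 and Scp2 are -2.34 and -2.24, and those of the other 30 genes lie between -0.99 and 0.82.

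The members other than this pair were therefore compared as a group. In the fit of genes above background, 30 of them were measured, 18 negative and 12 positive, with a median of -0.10 and a range from -0.99 to 0.82. The smallest edgeR adjusted p among them was 0.482. Some were kept though only Vaseline 2 reached 5 times background. Ehhadh, for example, stood at 4.46 and 12.9 times with Vaseline and at 3.25 and 1.08 times with imiquimod. Unadjusted p-values under 0.05 numbered 4 over the 32 members (Hsd17b4, Scp2, Cat and Far1, all lower), where 5.62% of genes above background were lower by that rule. Over all genes above background the median was 0.03 and 47.7% were negative.

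Peroxisomal genes outside the list were counted from 3 further lists of peroxins, membrane and division genes, and matrix enzymes. All 48 that were found were tested, 29 negative and 19 positive, with a median log2 fold change of -0.19, and 0 passed in edgeR. There 9 had an unadjusted p under 0.05 in either direction, where 13.7% of all genes did. DESeq2 called 2 lower, where it called lower 6.95% of the 9619 genes to which it gave an adjusted p. How many of the 48 were given such a value was not counted, and 22 of them were under the background bound. Among the 2 called lower was Acbd5, which tethers peroxisomes to the endoplasmic reticulum. Acbd5 measured 108 and 195 CPM with Vaseline and 54.4 and 31.1 CPM with imiquimod, so the groups did not overlap. Its log2 fold change was -1.83 (DESeq2 adjusted p = 0.0302), and -1.10 above background, where neither edgeR nor DESeq2 called it.

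Mitochondrial fatty acid oxidation, which takes the chains that peroxisomes release, had 19 of 19 genes negative in the fit of all genes. In that fit 39.4% of all genes and 83.3% of genes above background were negative. The median of the 19 was -0.55, and 0 passed the threshold by edgeR or by DESeq2. In edgeR 1 had an unadjusted p under 0.05, where 5.1% of all genes and 13.4% of genes above background were lower by that rule. Above background 7 of 18 were negative and the median was 0.10. Of 11 genes of the PPAR family and its coregulators, 7 were negative and 4 positive over all genes, and none passed in edgeR. There 2 had an unadjusted p under 0.05 in either direction, where 13.7% of all genes did. All 5 ether lipid genes downstream of Gnpat, Agps and Far1 that were found were negative over all genes, with a median of -0.39, and above background 2 were negative and 2 positive.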

How the data were processed

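Total RNA from isolated ear Langerhans cells was measured in 4 libraries, 2 with Vaseline and 2 with imiquimod, made from 10 to 70 ng with the SMARTer Stranded Total RNA-Seq Kit, version 2, per the labels' protocols. Trimmomatic, HISAT2, SAMtools and StringTie on build GRCm38 were used, per the submitters' processing notes; versions, annotation, strand setting and the treatment of reads with several matches are not given in the sources used here. The authors deposited whole-number counts per gene, unscaled. Treatment groups were taken from the titles.

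The 38 members and all gene lists were chosen with earlier results of these data known. Counts were tested with edgeR 4.0.16 (R 4.3.3; quasi-likelihood, two-sided, TMM factors, filterByExpr with a minimum count of 10 and a minimum total of 15), with Benjamini-Hochberg adjustment over 39439 genes and a threshold of 0.05. Levels are TMM-normalised CPM, and SE is the log2 fold change over the square root of F. Background was the median count per exonic kilobase of 1493 protein-coding olfactory and vomeronasal receptor genes in each library, with exons from the GENCODE annotation (55227 genes matched; bedtools 2.31.1). Genes whose ratio to it, as a mean over libraries, was at least 5 are called above background. Tested on simulated data, the fit of 39439 genes recovered 0%, 1.54% and 14.7% of genes changed 2-, 4- and 8-fold with 0 false calls, and the fit of 14398 genes above background 1.61%, 25.7% and 69.1% with 4 false calls. Library values are given for the 4 higher and 10 lower members of smallest p, for members past the threshold and, after their values were seen, for Pex10, Abcd3 and Eci2; of other lists, up to 4 genes of smallest p could be named. Some genes of other lists are not reported here. Members with over 20% of exonic bases shared are called uncertain.

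Alternatives were RLE factors, library totals, DESeq2 1.42.0, limma-voom (limma 3.58.1), no filter, genes above background alone (edgeR and DESeq2), a replicate block and leaving out each library. An older quasi-likelihood form, crossed numbers, and leaving out each library above background were added after seeing the data. Promoters are from RefSeq, build GRCm38.p6.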

Additional observations from a re-analysis of the deposited data

How the results depend on the processing

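Depth and background limit low members: 3 counts equal 0.191 CPM in imiquimod 1, and 6 members were under 5 times background. These values cover counting error only. Unless a value shows it, the cause of a change was not tested.

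Genes higher and lower over the whole table were 25 and 54. They were 17 and 14 with RLE factors, 8 and 5 on library totals, 6 and 669 with DESeq2, 41 and 136 with limma-voom, 3 and 5 in the older quasi-likelihood form, 0 and 0 without a filter, 0 and 0 above background in edgeR, and 99 and 155 there in DESeq2. Leaving out 1 library gave 8 to 2958 higher and 0 to 317 lower: 2958 and 317 when Vaseline 1 was left out, 28 and 17 for Vaseline 2, 15 and 6 for imiquimod 1, and 8 and 0 for imiquimod 2. The arm left with 1 library was assumed to vary like the other. The replicate block gave 1 higher and 0 lower and no member called. Nothing in the labels pairs the libraries, and those with the same number deviated in opposite directions from their group means (correlation -0.33 across genes); crossed numbers gave 0 and 0.

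Members past the threshold were 3 with DESeq2, 2 with DESeq2 above background, 1 (Hsd17b4, adjusted p = 0.0493) with edgeR on library totals and 2 with limma-voom. Negative members were 20 of 32 above background, 19 of 32 there in DESeq2 and 17 of 38 on library totals, where the median was 0.039. Leaving out 1 library kept 30 to 34 negative and the median between -1.20 and -0.41.

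Single members changed sign as follows. On library totals: Pex5 0.011, Pex7 0.45, Pex6 0.16, Pex26 0.21, Pex3 0.33, Pex16 0.26, Abcd3 0.012, Ehhadh 0.11, Acaa1a 0.30, Amacr 0.067, Pecr 0.27, Crot 0.082, Acot8 0.49 and Mlycd 0.29. Above background in edgeR: Pex6 0.092, Pex26 0.14, Pex3 0.26, Pex16 0.17, Ehhadh 0.033, Acaa1a 0.22, Pecr 0.19, Crot 0.0055, Acot8 0.41 and Mlycd 0.20. There in DESeq2: Pex6 0.10, Pex26 0.15, Pex3 0.28, Pex16 0.18, Ehhadh 0.046, Acaa1a 0.22, Amacr 0.0083, Pecr 0.20, Crot 0.011, Acot8 0.41 and Mlycd 0.20. With RLE factors: Pex10 -0.17, Eci2 -0.25 and Hacl1 -0.18. With DESeq2: Pex10 -0.16, Eci2 -0.21 and Hacl1 -0.17. Eci2 was -0.031 with limma-voom, -0.082 with the replicate block and -0.070 with crossed numbers. Without a filter Eci2 was -0.067 and Hacl1 -0.0069. With 1 library left out, Eci2 ranged from -1.03 to 0.65, Hacl1 from -0.055 to 0.16, Pex10 from -0.023 to 0.12 and Pex3 from -1.19 to 0.16. Eci2 and Hacl1 were negative without Vaseline 1 and without imiquimod 1, Pex10 without Vaseline 2 and without imiquimod 1, and Pex3 was positive without imiquimod 2.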

Other observations

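Of the lipid genes known to respond to the PPAR family, 3 of 10 are described here, and counts over the list are left out. Angptl4, an inhibitor of lipoprotein lipase, measured 11 and 13.9 CPM with Vaseline and 68.7 and 11.4 CPM with imiquimod. Pdk4, a kinase that limits glucose oxidation, measured 10.7 and 13.3 CPM and then 48.3 and 7.98 CPM. Angptl4 and Pdk4 were high in imiquimod 1 only, with log2 fold changes of 1.66 and 1.20 (edgeR adjusted p = 0.256 and 0.362). Scaled over genes above background, the 32 peroxisomal members there had a median ratio of imiquimod 1 to imiquimod 2 of 1.02 (range 0.486 to 1.84), against 3.68 for Angptl4 and for Pdk4. Cd36, a fatty acid transporter, went the other way, at 21.3 and 16.4 CPM with Vaseline and 3.76 and 4.66 CPM with imiquimod (log2 fold change -2.14, edgeR adjusted p = 0.121).

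All 13 mitochondrially encoded genes were negative over all genes, with a median log2 fold change of -1.28 and none past the threshold in edgeR. In that edgeR fit 83.3% of genes above background were negative. There 2 had an unadjusted p under 0.05, where 5.1% of all genes and 13.4% of genes above background were lower by that rule. DESeq2 called 4 lower. Above background 12 were negative with a median of -0.36, and DESeq2 called 0 there. All 9 tested markers of activated keratinocytes were positive with a median of 1.33, and 1 of them, S100a8, passed in edgeR, while DESeq2 above background called 4 higher. Neutrophil markers summed to 26.8 and 19 CPM with Vaseline and 23.2 and 75.3 CPM with imiquimod, with 1 marker passing higher in edgeR and 1 in DESeq2 above background, and Elane and Camp were at 0 counts in some libraries. Of 9 monocyte and macrophage markers 5 were negative, and of 10 T cell markers 8. None of these passed in edgeR, and DESeq2 over all genes called 1 lower in each list. Of 6 B cell markers 5 were positive and 1 passed lower in edgeR, and of 6 fibroblast markers 4 were negative and 1 passed lower in edgeR. Melanocyte (4 of 5), mast cell and basophil (6 of 6) and adipocyte (5 of 5) markers were mostly positive, each list summing to at most 34.9 CPM in any library. None of these passed in edgeR, and DESeq2 above background called 1 mast cell and basophil marker higher. Of 13 keratinocyte and sebaceous markers 8 were negative. None passed in edgeR, and DESeq2 over all genes called 1 lower. Of all genes, edgeR called 0.0634% higher and 0.137% lower. Of the 9619 genes to which it gave an adjusted p, DESeq2 called 0.0624% higher and 6.95% lower. Above background, DESeq2 called 0.701% of genes higher and 1.1% lower.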
